A study of Mus musculus with 6 samples.

Results

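The numbered Zfp genes are the mouse genes whose symbols join Zfp, for zinc finger protein, with a number. The members described here are the protein-coding ones, without symbols that start with Zfp36, that reached a CPM of 1, the count scaled to the library total, in at least 3 of 6 RNA sequencing libraries. Of 381 such genes in a table of 27179 genes, 301 were members, and all 301 were abundant enough to be tested. The remaining 80 were left out, 71 of them under 1 CPM in every library and 9 at 1 CPM or more in 1 or 2 libraries. The rule used levels in any library and not the treatment. There were 0 members at 1 CPM or more in all libraries of 1 group and none of the other. In 2 members, fewer than 2 libraries of 1 group reached 1 CPM. Of the members, 287 were at 1 CPM or more in all 6 libraries and 14 in 3 to 5 of them. Just inside the limit, Zfp982 reached 1 CPM in 3 libraries. Just outside it, Zfp493 reached 1 CPM in 2 libraries, at 1.174 and 1.241 CPM, and lay between 0.609 and 0.988 CPM in the others.

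The libraries came from a mouse acute myeloid leukemia labelled A/E9a;NRASG12D, which carries the 9a spliced form of the RUNX1-RUNX1T1 (AML1-ETO) fusion and a mutant NRAS. The leukemia was grown in C57BL/6 mice that were given panobinostat, an inhibitor of histone deacetylases, or vehicle for 3 days. GFP-positive leukemia cells that excluded propidium iodide were sorted from spleens, giving 3 libraries a group. The deposited counts of both groups are labelled WT tumor cells, with no gene named beside WT. Both groups carried the same leukemia, given in the labels as 1 cell line, and the labels do not give the age of the mice, the vector or promoter of the oncogenes, the dose, or whether each library came from a separate mouse. The p-values therefore measure the spread between libraries, which may be technical. Libraries are called here by group and by the leading number of their column, vehicle 2, 3 and 4 and panobinostat 1, 5 and 6.

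Most numbered Zfp proteins carry C2H2 zinc fingers, short folds in which a pair of cysteines and a pair of histidines hold a zinc ion and which, in arrays, read a DNA sequence. Many also carry a KRAB domain, which recruits the corepressor TRIM28 (KAP1) and, through it, the histone methyltransferase SETDB1, HP1 proteins and a deacetylase complex. KRAB zinc finger proteins are best known for silencing endogenous retroviruses and for keeping imprints, and many sit in clusters of young, closely related genes. Zfp genes without a KRAB domain include promoter-binding activators, regulators of blood progenitors and proteins that bind RNA, ribosomes or ubiquitin.

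Library totals ran from 25794869 to 32571961 counts, so that 1 count was worth 0.0307 to 0.0388 CPM. Genes of leukemic progenitors (Kit, Runx1, Gata1, Gata2, Cd34, Myb) all reached 1 CPM and summed, as CPM of the library total, to 1880 to 2080 CPM in vehicle and 2000 to 2900 CPM in panobinostat libraries. Summed levels of 3 other marker lists did not overlap between groups. Erythroid markers (7 of 7 reached 1 CPM) were at 7480 to 8290 CPM in vehicle and 23800 to 50600 CPM with panobinostat. Plasmacytoid dendritic cell markers (3 of 6 reached 1 CPM) were at 81.8 to 94.0 and 159 to 233 CPM, nearly all of it Bst2, which interferon also induces. Stroma and endothelium markers (2 of 5 reached 1 CPM) were at 1.94 to 2.64 and 11.1 to 19.4 CPM. Mast cell and basophil markers (5 of 5) were at 1640 to 2060 and 1070 to 2990 CPM, and macrophage markers (8 of 8) at 7.23 to 13.5 and 9.47 to 39.4 CPM. T cell (1 of 7), B cell (4 of 5), NK cell (0 of 5) and neutrophil markers (4 of 7) summed to at most 6.05, 6.51, 0.587 and 7.35 CPM in any library. Of the markers found, 0 lacked counts in every library. The part of these other cells in the Zfp results was not tested, and in sorted bulk RNA a change in the cells cannot be told apart from a change in RNA per cell. Panobinostat 1 differs from the other 5 columns in the last number of its name.

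Promoters are shown for the member that rose most and for a pair of neighbouring genes called together. Each stretch is the 150 bases before the RefSeq transcription start on GRCm38.p6, read 5′ to 3′ on the gene's strand. For Zfp385a, minus strand of chr15:103340087-103340236, capitals mark the 2 matches to the GC box letters GGGCGG on either strand, a motif bound by Sp1-type factors.
Zfp385a: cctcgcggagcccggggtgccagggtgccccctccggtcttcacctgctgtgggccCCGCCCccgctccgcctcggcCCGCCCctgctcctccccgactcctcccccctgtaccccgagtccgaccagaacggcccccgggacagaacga
Zfp874a (minus strand of chr13:67451625-67451774) and Zfp874b (minus strand of chr13:67484254-67484403) are KRAB genes on chromosome 13, and their stretches were 85.3% identical by edit distance. The start used for Zfp874b, the first listed, lies inside the annotated gene, whose upstream end is at base 67486241. Capitals mark the longest run that both share, 45 bases.
Zfp874a: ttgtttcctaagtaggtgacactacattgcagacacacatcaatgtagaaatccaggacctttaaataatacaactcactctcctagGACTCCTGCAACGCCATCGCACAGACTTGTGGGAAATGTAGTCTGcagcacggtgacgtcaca
Zfp874b: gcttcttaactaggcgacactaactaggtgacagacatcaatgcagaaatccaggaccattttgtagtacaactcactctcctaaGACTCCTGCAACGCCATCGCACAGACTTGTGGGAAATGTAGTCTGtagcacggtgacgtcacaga
The shared run holds 1 match to ACANNTCCC, the inner letters of an element bound by the zinc finger protein ZNF143 (mouse Zfp143), on the reverse strand. Both stretches also hold the cAMP response element letters TGACGTCA, written in lower case after the run.

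These motifs were counted on both strands in 300-base windows from 250 bases before to 50 after each start, of which 307 belonged to 254 of the members. The ZNF143-type letters ACANNTCCC stood in 56 of 182 windows of KRAB members (30.8%) and in 14 of 119 windows of other C2H2 members (11.8%). They stood in 8.59% of the 12239 windows of tested genes and in 6.28% of all 32851 windows. GC boxes went the other way, with 37.4% of KRAB windows, 60.5% of other C2H2 windows and 61.4% of windows of tested genes. TGACGTCA was in 3.91% of member windows and 3.06% of windows of tested genes. Among the 22 windows of members called higher, 3 held ACANNTCCC and 11 a GC box. A match is only a run of letters and says nothing of binding in these cells.

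Protein sequences translated from the longest GENCODE M21 coding transcript were searched for the C2H2 and KRAB patterns, for 299 of the 301 members. A KRAB pattern was found in 180 members, with a median of 12 fingers per protein. Another 115 had C2H2 fingers without that pattern, with a median of 7. No finger match was found in 4 members, Zfp185, Zfp330, Zfp703 and Zfp839. A pattern for the SCAN domain, which pairs proteins with each other, matched 7 members. No mismatch was allowed in that pattern, so other SCAN proteins may be missed. The largest finger count was 36. Counts behind the values differed by class, with a median of 13.3 TMM-scaled CPM (CPM after composition scaling) in KRAB members, 30.6 in other C2H2 members and 30.9 in all tested genes.

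By CPM, the 4 members with the highest means were Zfp106, Zfp207, Zfp592 and Zfp445. Zfp106, which encodes an RNA-binding protein, was at 437 ± 21.7 CPM in vehicle and 451 ± 102 CPM with panobinostat (SD, n = 3 each). Zfp207 (BuGZ), a spindle and kinetochore protein, was at 351 ± 58.6 and 383 ± 22.1 CPM. Zfp592, a partner of the chromatin reader ZMYND8, was at 175 ± 10.7 and 184 ± 12.5 CPM. Zfp445, a KRAB gene that keeps imprints, was at 155 ± 7.21 and 159 ± 4.14 CPM. Per kilobase of exon, mean levels were 55.2 CPM per kb for Zfp207, 42.6 for Zfp106, 24.3 for Zfp592 and 21.2 for Zfp445, and the median member was at 4.0. The KRAB genes Zfp869 and Zfp984 came next after Zfp106 on that scale, at 34.5 and 32.3, and were named after their values were seen. None of these 6 was called, all with overlapping groups, and the order of Zfp207 and Zfp106 turned with the scale.

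After panobinostat, most numbered Zfp genes were near their vehicle level. Of the 301 members, 24 were called, 20 higher and 4 lower (7.97%), by the quasi-likelihood test of edgeR with a Benjamini-Hochberg adjusted p under 0.05 over 12916 genes. Over all tested genes the same rule called 21.0%, 11.3% higher and 9.72% lower, and 22.1% of the 11780 tested genes that met the same CPM limit as the members. The fold change lay within 1.25-fold in either direction in 211 members (70.1%), against 57.2% of the genes that met the CPM limit. At least 2-fold differences were seen in 5 members (1.66%), 2 of them called, against 7.87% of those genes. At an unadjusted p under 0.05 there were 65 members (21.6%) and 36.8% of all tested genes. The median standard error of a log2 fold change was 0.16 in members and 0.15 in all tested genes.

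Among the small differences, higher values were more frequent than lower ones. The log2 fold change was above 0 in 188 of 301 members, with a median of 0.08 against 0.01 over all tested genes. All 3 panobinostat values lay above all 3 vehicle values in 71 members (23.6%; 21.9% of all tested genes) and below them in 32 (10.6%; 22.7% of all tested genes). Next to all tested genes, the share with all treated values higher was close and the share with all treated values lower was smaller. Scaled by library size alone, the members' median was -0.03 and that of all genes -0.10, so the direction of the median depended on the scaling while the members' median stayed above that of all genes. Under that scaling 8 members were called higher and 13 lower, 38.1% higher against 83.3% with composition scaling, and for all genes 35.5% against 53.8%.

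**Figure D1:**
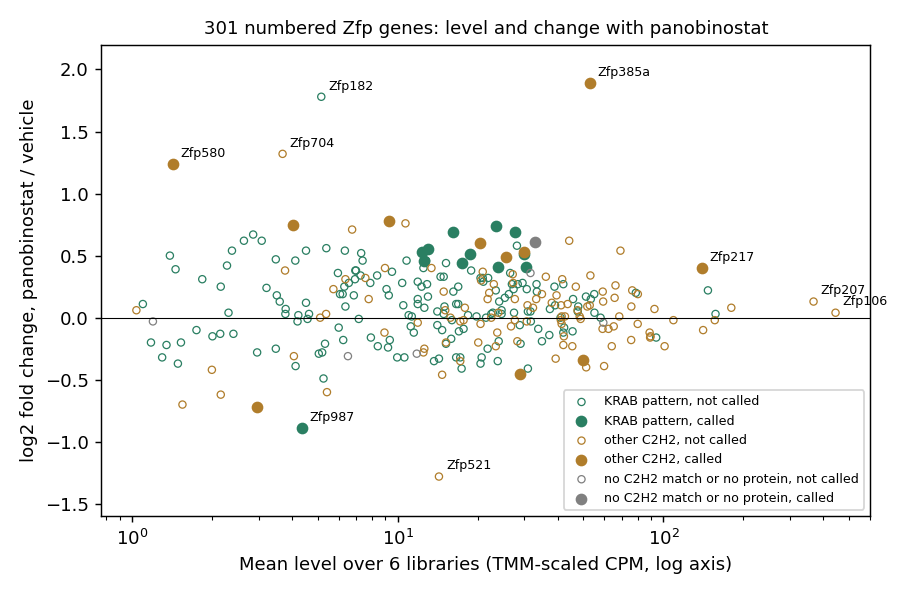
Mean level over 6 libraries (TMM-scaled CPM, log axis) against the log2 fold change of panobinostat over vehicle for the 301 members, coloured by protein class, with filled points for the 24 called. Most points lie close to 0, and the points far from 0 include open ones such as Zfp182, Zfp704 and Zfp521.

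The KRAB genes as a class shifted little, upward under composition scaling. Of 180 KRAB members, 11 were called higher and 1 lower (6.67%, against 21.0% of all tested genes), with a median log2 fold change of 0.11. This median was 0.00 under scaling by library size alone, where that of all tested genes was -0.10. Groups did not overlap in 45 KRAB members that were higher (25.0%; 21.9% of all tested genes). They did not overlap in 12 that were lower (6.67%; 22.7% of all tested genes). Of the 115 other C2H2 members, 8 were called higher and 3 lower (9.57%), with a median of 0.04 that became -0.06 by library size alone. Summed over the class, KRAB transcripts stood at 2951, 3355 and 3450 CPM in vehicle 2, 3 and 4 and at 3472, 3515 and 3495 CPM in panobinostat 1, 5 and 6. Vehicle 2 was the low library in that sum, and vehicle 4 lay next to the treated libraries.

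Vehicle 2 had the lowest vehicle value in 127 of 180 KRAB members (70.6%), in 61 of 115 other C2H2 members (53.0%) and in 37.2% of all tested genes. Without it the median log2 fold change of KRAB members was 0.07 and that of other C2H2 members 0.00. In that fit edgeR called 4 members higher and 0 lower, and 50 members had an unadjusted p under 0.05, 16 of them lower. Calls over all tested genes fell as well, from 1460 higher and 1255 lower to 429 and 180. Calls of members also fell without vehicle 3 (4 higher, 0 lower by edgeR) and without vehicle 4 (1 higher, 0 lower). There, 9 and 7 members were lower at an unadjusted p under 0.05. Calls over all tested genes were 745 higher and 514 lower without vehicle 3, and 303 and 135 without vehicle 4. Without panobinostat 1, the library that stands apart by its column name, the medians were 0.12 and 0.03, with 30 members called higher and 8 lower. Over all tested genes that fit called 2192 higher and 1864 lower.

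**Figure D2:**
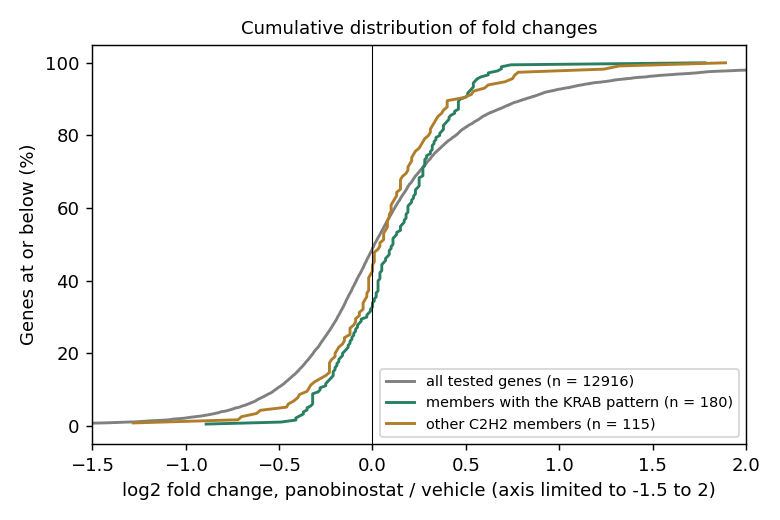
Cumulative distribution of log2 fold changes of panobinostat over vehicle for KRAB members, other C2H2 members and all 12916 tested genes, with the axis limited to -1.5 to 2. The member curves are steeper than that of all genes, and the KRAB curve crosses the middle at 0.11.

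Zinc finger genes outside the numbered Zfp names were counted in the same way. Of 108 other tested genes with at least 5 C2H2 fingers and the same CPM limit, 12 were called (11.1%), 10 higher and 2 lower, with a median of 0.03. Of these, 31 carried a KRAB pattern, and 1 was called higher, with a median of -0.12. Their groups were apart and lower in 29.0% and apart and higher in 16.1%, against 22.7% and 21.9% of all tested genes. Whether they differ from the numbered KRAB genes was not tested. By number of fingers, calls were 3 of 62 members with 1 to 6 fingers, 11 of 136 with 7 to 12 and 9 of 97 with 13 or more, at medians of 0.01, 0.08 and 0.15. The share called over all tested genes was 21.0%.

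The member with the clearest change was Zfp385a (Hzf; Entrez gene 29813; GRCm38 chromosome 15, 103313895 to 103340086), whose promoter is printed above. It encodes a p53-induced zinc finger protein of blood cells that binds RNA and steers p53 toward genes of cell cycle arrest. It stood at 21.1, 27.3 and 19.0 CPM in vehicle 2, 3 and 4 and at 101, 81.3 and 67.6 CPM in panobinostat 1, 5 and 6. All treated libraries were far above all vehicle libraries. The log2 fold change was 1.89 ± 0.19 (SE; 3.7-fold; edgeR adjusted p = 0.0036). It was called in all 6 fits that left out 1 library (1.73 to 2.05, adjusted p from 0.0015 to 0.031) and in all 7 other settings, and it was the only member called in every fit.

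Zfp580 (Entrez gene 68992) and Zfp579 (Entrez gene 68490), both on chromosome 7, rose from low levels. Zfp580 was at 0.969, 0.532 and 1.03 CPM in vehicle and 2.12, 2.3 and 1.61 CPM with panobinostat, a log2 fold change of 1.24 ± 0.33 (edgeR adjusted p = 0.036). Zfp579 was at 5.98, 7.48 and 6.92 CPM in vehicle and 12.5, 11.9 and 10.7 CPM with panobinostat, a log2 fold change of 0.78 ± 0.15 (adjusted p = 0.016). The groups did not overlap in either gene. Zfp174, a SCAN domain protein known as a repressor, rose from 3.02 ± 0.32 to 5.09 ± 0.552 CPM (edgeR adjusted p = 0.035). The calls of Zfp580 and Zfp174 were each lost in 5 of the 6 fits that left out a library, with adjusted p up to 0.11 and 0.15, and that of Zfp579 in 2. Zfp174 also missed the threshold by library size alone (0.051) and without the filter on low counts (0.052).

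The KRAB neighbours Zfp874a and Zfp874b rose together. Zfp874a (Entrez gene 238692) was at 14.0, 19.8 and 18.8 CPM in vehicle and at 30.2, 29.4 and 28.4 CPM with panobinostat. Zfp874b (Entrez gene 408067) was at 9.6, 14.8 and 12.9 CPM and at 19.5, 21.0 and 19.5 CPM. In both genes vehicle 2 was lowest and the treated libraries were nearly level. The log2 fold changes were 0.74 ± 0.15 (edgeR adjusted p = 0.016) and 0.69 ± 0.17 (0.031). Their coding sequences were 95.5% identical over 1341 bases, so reads may be shared between them and the pair may be less than 2 separate results. Leaving out 1 library, Zfp874a lost its call in 1 of 6 fits and Zfp874b in 4.

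Zfp949, a KRAB gene on chromosome 9, rose from 21.1 ± 1.73 to 34.1 ± 7.84 CPM, with panobinostat 1 highest at 43.0 CPM. Its log2 fold change of 0.69 ± 0.17 was 0.49 without that library, still called, and the call was lost without vehicle 2, 3 or 4 (edgeR adjusted p from 0.08 to 0.13). Zfp839 rose from 26.0 ± 2.35 to 39.7 ± 4.33 CPM (edgeR adjusted p = 0.017). Zfp217, an oncogene product that recruits CtBP corepressors, had the highest CPM of those that rose. It was at 124, 128 and 112 CPM in vehicle and 161, 170 and 148 CPM with panobinostat, a log2 fold change of 0.40 ± 0.09 (edgeR adjusted p = 0.028), and it was not called by library size alone. Zfp113, Zfp51 and Zfp729a, all KRAB genes, rose by 0.44, 0.41 and 0.41 on the log2 scale, and with Zfp217 they kept their calls in 1 or 2 of the 6 fits that left out a library. Zfp729a carried 27 fingers.

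The other 8 called members were named after their values were seen. They were the KRAB genes Zfp90, Zfp560, Zfp677, Zfp617 and Zfp983 and the C2H2 genes Zfp513, Zfp239 and Zfp526, all higher. Their log2 fold changes ran from 0.46 in Zfp983 to 0.60 in Zfp513, with edgeR adjusted p between 0.031 and 0.049. Each of these 8 calls held in only 1 or 2 of the 6 fits that left out a library. Zfp513 was 0.51 without panobinostat 1 (adjusted p = 0.064) and kept its call in 3 of the 7 settings that used every library, Zfp983 in 4 of 7. Zfp90 is known to bind the neuronal repressor REST, and Zfp239 (Mok2) binds both DNA and RNA. Of the 20 members called higher, 10 had their highest value in panobinostat 1, 10 in panobinostat 5 and 0 in panobinostat 6. Over all 12916 tested genes these libraries held the highest of the 6 values in 3586, 3030 and 707 genes. On chromosome 13 the 29 members had a median of 0.21, and 24 of them were above 0, with 3 called (10.3%). On chromosome 7, which holds 79 members, 3 were called higher and 1 lower (5.06%), with a median of 0.11. The shares called were 7.97% of all members and 21.0% of all tested genes. Above 0 were 188 of 301 members and 6605 of 12916 tested genes.

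**Figure D3:**
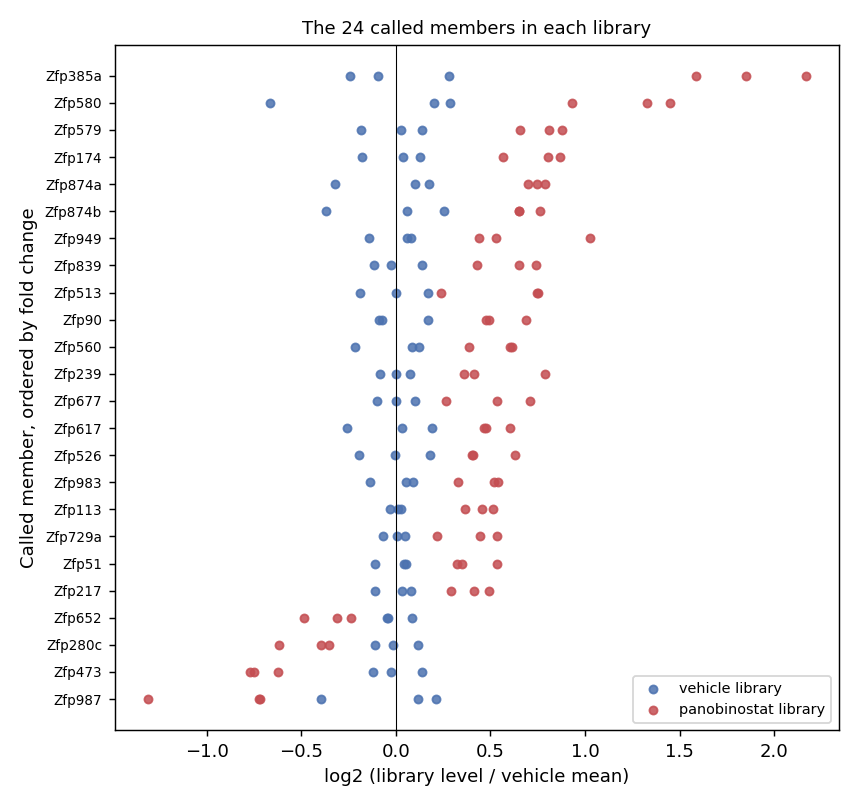
Level of each of the 24 called members in each library as the log2 ratio to the vehicle mean, ordered by fold change. Zfp385a stands apart at the top, and the 3 panobinostat points lie on 1 side of the 3 vehicle points in every gene.

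The 4 members called lower were Zfp987, Zfp473, Zfp280c and Zfp652. Zfp473 (ZFP100), a part of the U7 machinery that makes the ends of histone messages, was at 4.04, 3.37 and 3.6 CPM in vehicle and 2.15, 2.38 and 2.18 CPM with panobinostat. Its log2 fold change was -0.72 ± 0.20 (edgeR adjusted p = 0.041). Zfp652, whose human counterpart represses genes together with the ETO-family corepressor CBFA2T3, was at 59.3, 54.0 and 54.3 CPM in vehicle and 45.0, 39.9 and 47.4 CPM with panobinostat. Its log2 fold change was -0.34 ± 0.10 (adjusted p = 0.049). Zfp280c fell from 33.3 ± 2.69 to 24.4 ± 2.31 CPM. Zfp987, a KRAB gene 92.5% identical to Zfp534 in its coding sequence, fell from 5.66 ± 1.2 to 3.05 ± 0.664 CPM and lost its call in all 6 fits that left out 1 library. Each of the other 3 kept its call in 1 of those 6 fits.

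The largest decrease in size was Zfp521 and was not called. Zfp521 is a regulator of blood stem and progenitor cells. It was at 18.5, 22.3 and 20.2 CPM in vehicle and 3.49, 11.5 and 10.2 CPM with panobinostat, so the groups were apart and panobinostat 1 was the lowest. The log2 fold change was -1.28 ± 0.39 (edgeR adjusted p = 0.055). Without panobinostat 1 it was -0.91 with an adjusted p of 0.005, and it was also called by DESeq2 (adjusted p = 0.0052) and limma-voom (0.036), by library size alone (0.043) and without the filter on low counts (0.039). Under RLE or upper quartile normalization, or with 1 CPM in 3 libraries as filter, edgeR did not call it (adjusted p = 0.057, 0.051 and 0.056). It was also not called by edgeR when any other library was left out (0.051 to 0.15).

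Among retroelement and imprint silencers, 0 of 5 members were called by edgeR, DESeq2 or limma-voom, and 0 had an unadjusted p under 0.05. Of all tested genes, edgeR called 21.0%, and 36.8% had an unadjusted p under 0.05. Zfp809, which recognises the primer binding site of murine leukemia proviruses, was at 23.9 ± 4.17 CPM in vehicle and 26.7 ± 5.03 CPM with panobinostat (log2 0.16 ± 0.19). Zfp932, a silencer of endogenous retroviruses, was at 8.67 ± 0.148 and 9.84 ± 0.888 CPM (0.18 ± 0.14). Zfp568, which represses a placental Igf2 transcript, was at 47.3 ± 6.84 and 43.7 ± 10.6 CPM, and Zfp708 at 3.69 ± 1.28 and 3.88 ± 0.201 CPM. Zfp445 is given above. The imprint keeper Zfp57 was no member, at 0.141 to 0.477 CPM in 5 libraries and 1.667 CPM in panobinostat 5.

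Of 11 promoter-binding and cell identity factors, 1 (Zfp217) was called by edgeR (9.09%, against 21.0% of all tested genes). DESeq2 and limma-voom each called 1 higher and 1 lower, and the lower one was Zfp521, which is described above. Zfp143, which binds the element described above, was at 31.0 ± 3.04 and 30.3 ± 2.84 CPM. Zfp410, the known activator of the Chd4 gene, was at 46.6 ± 3.24 and 48.4 ± 5.33 CPM, and Chd4 itself had a log2 fold change of 0.11 ± 0.11 (edgeR adjusted p = 0.51). Zfp281 and Zfp148, which bind GC-rich promoters, were at 0.10 ± 0.17 and -0.15 ± 0.13 on the log2 scale. Zfp384, Zfp335 and Zfp292 lay between -0.12 and 0.01. Zfp318 had a log2 fold change of 0.40 ± 0.29 with overlapping groups, and Zfp703 of -0.29 ± 0.16.

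None of the 7 chromatin complex partners was called by edgeR, DESeq2 or limma-voom, and 1 had an unadjusted p under 0.05. The shares over all tested genes were 21.0% called by edgeR and 36.8% at an unadjusted p under 0.05. Zfp512b, a partner of the NuRD deacetylase complex, was at 78.0, 46.9 and 43.3 CPM in vehicle and 84.6, 82.5 and 78.0 CPM with panobinostat. Vehicle 2 was at the level of the treated libraries, and the log2 fold change of 0.54 ± 0.22 (edgeR adjusted p = 0.11) moved with the vehicle libraries. It was 0.86 without vehicle 2 (0.03), the only fit run that called it, 0.43 without vehicle 3 (0.28) and 0.39 without vehicle 4 (0.31). Zfp644, which works with the methyltransferase G9a, was at 69.1 ± 4.88 and 58.8 ± 5.37 CPM (log2 -0.23 ± 0.10). Zfp687, Zfp219, Zfp296, Zfp518a and Zfp592 lay between 0.00 and 0.12 on the log2 scale.

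Of 13 members with roles in RNA, ribosomes, ubiquitin or the spindle, 1 (Zfp385a) was called (7.69%, against 21.0% of all tested genes). Zfp598, the ubiquitin ligase that senses collided ribosomes, was at 94.1 ± 3.75 and 84.1 ± 9.25 CPM, and Zfp622, a maturation factor of the large ribosomal subunit, at 41.3 ± 4.88 and 41.6 ± 1.9 CPM. Zfp638, which takes part in silencing unintegrated retroviral DNA, was at 146 ± 22.9 and 136 ± 22.9 CPM. Zfp91, a ubiquitin ligase, was at 157 ± 7.5 and 155 ± 7.33 CPM. Zfp706, Zfp593 and Zfp326 were lower in all treated libraries, at log2 fold changes of -0.23, -0.25 and -0.35, and none was called. They make up 23.1% of the list, close to the 22.7% of all tested genes with all treated values lower. Zfp346, Zfp451 and Zfp830 lay between -0.07 and 0.33 with overlapping groups.

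A broad list of KRAB cofactors held Trim28, Setdb1 and HP1 genes. It also held deacetylase complex, DNA methylation and histone methylation genes that are not specific to KRAB proteins. Genes on the list were more often called lower than higher. Of 34 listed genes, 10 were called lower and 4 higher (41.2%), with a median log2 fold change of -0.19. Of all tested genes, 9.72% were called lower and 11.3% higher. The list had a median of 111 CPM and a median standard error of 0.11, against 30.9 CPM and 0.15 in all tested genes. A difference of a given size was thus easier to call in the list. Trim28, the direct partner of KRAB domains, was at 458, 412 and 428 CPM in vehicle and 323, 304 and 349 CPM with panobinostat, with no overlap. Its log2 fold change was -0.41 ± 0.09 (edgeR adjusted p = 0.025). The HP1 genes Cbx5 and Cbx1 fell by 0.74 (adjusted p = 0.015) and 0.40 (0.042) on the log2 scale. Cbx3, the other HP1 gene, was at -0.35 ± 0.13 (0.10), and Setdb1 at -0.19 ± 0.09 (0.16).

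The other genes called lower were the maintenance DNA methyltransferase Dnmt1 (606 ± 57.0 to 428 ± 50.4 CPM), its partner Uhrf1, the deacetylase Hdac2, Rbbp7, Mbd3, Wiz and Suv39h2. Those called higher were the SETDB1 partner Atf7ip (80.3 ± 9.76 to 120 ± 23.7 CPM), Mta3, Mbd2 and the de novo methyltransferase Dnmt3a. Hdac1 was at 184 ± 7.4 and 180 ± 12.8 CPM. Uhrf1, Mbd3, Wiz, Suv39h2, Atf7ip, Mta3, Dnmt3a and Hdac1 were named after their values were seen. By library size alone edgeR called 0 of these genes higher, with 3 at an unadjusted p under 0.05. Without vehicle 2 it called 0 in either direction, and likewise without vehicle 4, with 14 and 16 genes at an unadjusted p under 0.05.

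**Figure D4:**
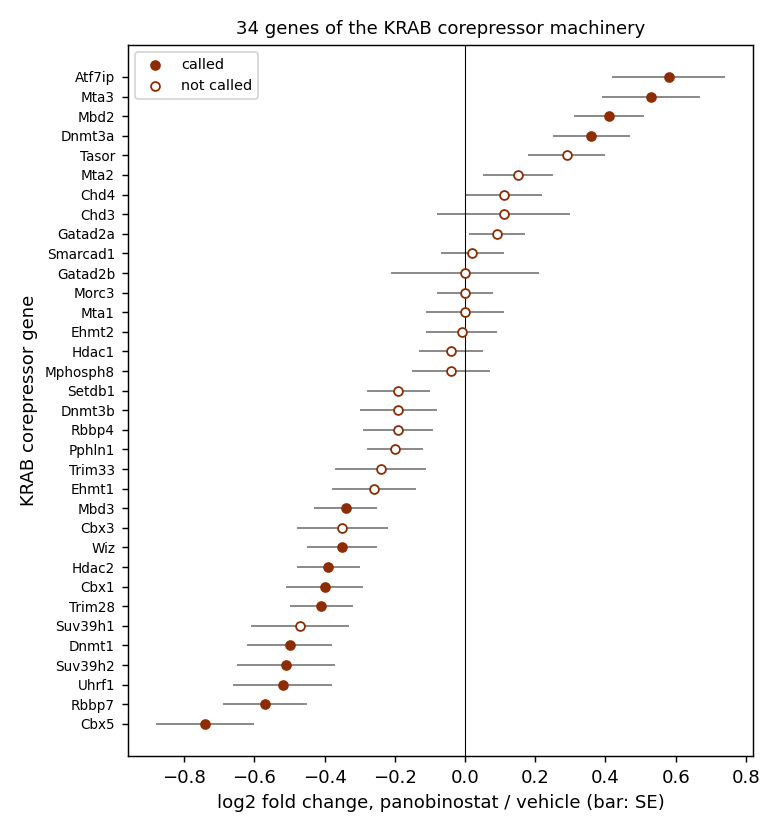
Log2 fold change of panobinostat over vehicle with its standard error for the 34 genes listed as KRAB cofactors, filled where called. Cbx5 is lowest at -0.74 and Atf7ip highest at 0.58, with Trim28 at -0.41.

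A few members varied between libraries far beyond the treatment, and these were singled out after their values were seen. Zfp182, an X-linked KRAB gene, was at 3.39, 3.12 and 0.48 CPM in vehicle 2, 3 and 4 and at 20.5, 1.53 and 1.99 CPM in panobinostat 1, 5 and 6. Zfp979 (chromosome 4) was at 2.75, 3.19 and 0.685 CPM and at 8.51, 0.645 and 1.36 CPM. Zfp982, which lies in the same cluster, was at 2.07, 2.59 and 0.788 CPM and at 3.68, 0.484 and 0.883 CPM. In all 3 genes panobinostat 1 was highest, vehicle 2 and 3 came next, and the other 3 libraries were low. Vehicle 2 and 3 are the only columns that share both of the later numbers in their names. None of the 3 was called (edgeR adjusted p = 0.27, 0.64 and 0.94). Without panobinostat 1 their log2 fold changes were -0.40, -1.11 and -1.38, so the sign for Zfp182 and Zfp979 rested on that library.

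The promoters of Zfp979 and Zfp982 are printed because both genes show that pattern. They are the 150 bases before the start on the minus strand of chr4:147642509-147642658 and the plus strand of chr4:147492267-147492416 (GRCm38.p6). For Zfp982 this is, of 3 RefSeq windows, the one most like that of Zfp979. Capitals mark the longest shared run, 42 bases.
Zfp979: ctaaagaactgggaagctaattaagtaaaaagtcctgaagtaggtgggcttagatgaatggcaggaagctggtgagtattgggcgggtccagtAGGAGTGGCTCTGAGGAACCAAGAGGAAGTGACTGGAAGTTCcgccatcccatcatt
Zfp982: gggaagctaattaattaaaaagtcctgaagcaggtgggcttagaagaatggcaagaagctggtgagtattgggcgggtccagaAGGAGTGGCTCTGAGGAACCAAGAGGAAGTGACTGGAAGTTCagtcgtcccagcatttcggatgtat
The 300-base windows were 85.3% identical. Each printed stretch holds 1 GC box, in lower case before the capitals. Within 1.5 Mb of this pair lay 8 other members, and 3 of them had the libraries in the same order with a much smaller spread. Zfp992 was at 50.8, 48.1 and 40.0 CPM in vehicle 2, 3 and 4 and at 61.3, 43.8 and 42.6 CPM in panobinostat 1, 5 and 6. Zfp991, its near-identical copy, was at 50.2, 49.4 and 40.8 and at 61.0, 42.6 and 41.6 CPM, and Zfp993 at 23.8, 22.6 and 18.2 and at 24.8, 19.4 and 20.3 CPM. The other 5 (Zfp987, Zfp985, Zfp534, Zfp984 and Zfp933) did not have that order.

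Other members with a wide spread inside the treated group, also singled out after their values were seen, were Zfp704, at 1.58, 2.73 and 1.99 CPM in vehicle and 1.76, 8.99 and 5.08 CPM in panobinostat 1, 5 and 6, and Zfp608, at 4.04, 6.17 and 5.11 and at 2.8, 14.4 and 7.88 CPM. Here panobinostat 1 was at or under the vehicle level and panobinostat 5 was highest. Zfp704 was not called (log2 1.32 ± 0.55, edgeR adjusted p = 0.12) and its size depended on single treated libraries. Without panobinostat 1 it was 1.74 (adjusted p = 0.01), without panobinostat 5 it was 0.70 (0.35), and the other 4 fits that left out a library gave an adjusted p of 0.17 to 0.30. The highest treated library was at least 3 times the lowest in 7 members, and the highest vehicle library at least 3 times the lowest in 4.

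**Figure D5:**
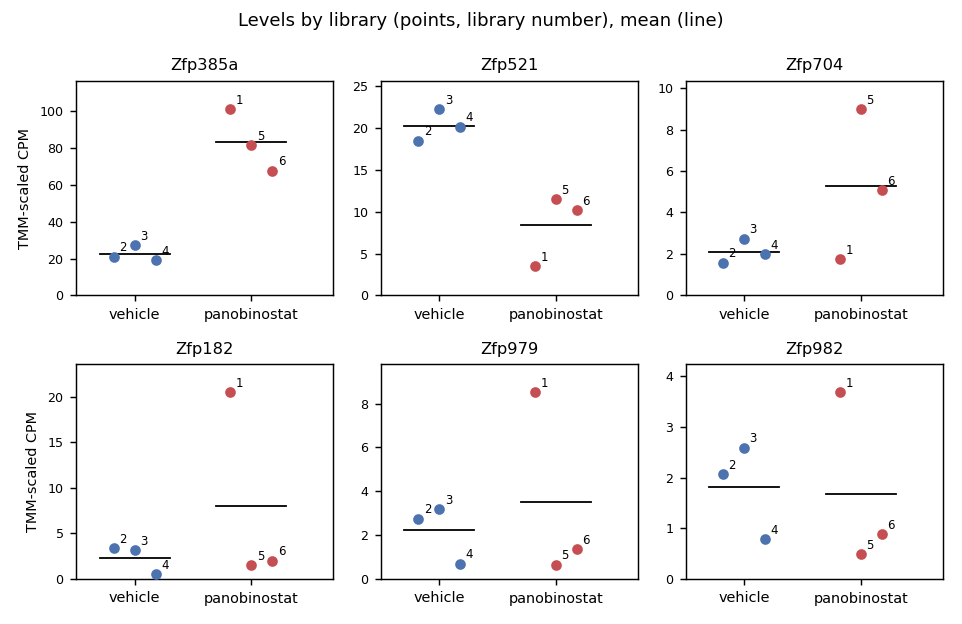
TMM-scaled CPM of 6 members in each library, labelled with the library number, with a line at the mean of each group. Zfp385a is higher and Zfp521 lower in all 3 panobinostat libraries, and in Zfp182, Zfp979 and Zfp982 panobinostat 1 is highest, followed by vehicle 2 and 3.

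Near-identical copies limit what can be said of some members. A coding sequence at least 90% identical to that of another candidate was found for 19 members, 3 of them called. The member Zfp966 had the same coding sequence of 1455 bases as Zfp967 and Zfp968, which were not members. Zfp992 and Zfp991 were 99.5% identical. Within 100 kb of another candidate lay 176 members, 13 of them called. For both counts, the share called was 7.97% over all 301 members and 21.0% over all tested genes.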

How the data were processed

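The authors deposited raw read counts for Entrez genes in 6 columns. The submitters' processing notes list, with no settings, cutadapt 2.1, HISAT2 2.1.0, featureCounts and Subread 2.0.0, and the build mm10. The annotation, the strand setting and multi-mapping are not given in the sources, so overlapping, antisense or near-identical genes may share reads. Columns were grouped by the word treated or control, and 0 were unused.

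Of 27179 rows, 25275 were named from RefSeq and 18 from GENCODE M21, and 1886 stayed unnamed. After filterByExpr, 12916 genes were tested with edgeR 4.0.16 (R 4.3.3): TMM factors, quasi-likelihood F test, Benjamini-Hochberg adjustment, calls under 0.05. Standard errors are |log2 fold change| over the root of F. Levels are CPM with TMM scaling. The test was checked on simulated counts. Alternatives were DESeq2 1.42.0, limma-voom (limma 3.58.1), 3 normalizations, 2 filters, 2 member rules, a stricter KRAB pattern and leaving out each library. Other scripts used Python 3.11.15. The KRAB pattern has 9 fixed positions with up to 2 mismatches.

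The members and lists were chosen with earlier results of these data known. Genes were named by rule: the 8 highest and 8 lowest called members by log2 fold change with groups apart, the 4 with the highest level, all members of 4 role lists, and of the KRAB cofactors 6 fixed genes and up to 4 other called genes with the smallest p. With 4 called lower, the 8 lowest include 4 genes that rose. With 3 libraries a group an exact permutation test cannot go under p = 0.1.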

Additional observations from a re-analysis of the deposited data

How the results depend on the processing

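No paired analysis was possible because the columns carry no replicate number. No called gene changed direction under any setting run. Leaving out 1 library at a time gave 1 to 30 members called higher (20 in the full fit) and 0 to 8 lower (4), and without vehicle 4, vehicle 2, vehicle 3, panobinostat 5 and panobinostat 6 the higher count was 1, 4, 4, 5 and 10, with 0 lower by edgeR each time (7 to 16 lower at an unadjusted p under 0.05). Without panobinostat 1 they were 30 and 8. The same ranges were 0 to 14 and 0 to 2 for KRAB members, 1 to 15 and 0 to 5 for other C2H2 members, 0 to 5 higher and 0 to 12 lower for the KRAB cofactors, and 303 to 2192 higher and 135 to 1864 lower for all tested genes. Library size alone gave 8 members higher and 13 lower, 4 and 5 for KRAB, 3 and 8 for other C2H2, 0 cofactors higher and 2065 tested genes lower. Without the filter on low counts 11 members were higher, 5 of them KRAB and 5 other C2H2. DESeq2 called 13 other C2H2 members higher and 5 lower. Of the 24 called members, 10 kept their call in all 7 settings that used every library and 1 in all 6 fits that left out a library. The other settings kept these counts within 1.5 times, and the cause of the differences was not tested.

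The sign of 19 named genes, none of them called, changed in some setting. Over the fits that left out 1 library, log2 fold changes ran from -0.01 to 0.05 (Zfp445), -0.01 to 0.22 (Zfp207), -0.07 to 0.22 (Zfp106), -0.10 to 0.05 (Zfp143), -0.09 to 0.08 (Zfp219), -0.02 to 0.24 (Zfp281), -0.25 to 0.02 (Zfp292), -0.04 to 0.07 (Zfp335), -0.04 to 0.11 (Zfp410), -0.15 to 0.17 (Zfp518a), -0.27 to 0.07 (Zfp568), -0.08 to 0.08 (Zfp622), -0.22 to 0.03 (Zfp638), -0.15 to 0.36 (Zfp708) and -0.06 to 0.02 (Zfp91). They ran from -0.40 to 2.26 (Zfp182), -1.11 to 1.16 (Zfp979) and -1.38 to 0.33 (Zfp982). By library size alone the values were -0.07 for Zfp445, -0.03 for Zfp592 and Zfp708, -0.06 for Zfp106, -0.10 for Zfp219, -0.09 for Zfp335, Zfp518a and Zfp622 and -0.05 for Zfp410. Without the filter Zfp219, Zfp335 and Zfp622 were at -0.01, and by limma-voom Zfp518a was at -0.02.

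Members with a mean under 10 CPM numbered 93.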

Other observations

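Genes outside the family shared the library pattern of Zfp182, chosen after the values were seen. They were those with the highest correlation to it over 6 libraries. Only genes with a log2 range above 2 were used, and Gm and Rik names were left out. Xlr, an X-linked lymphocyte-regulated gene, was at 11.4, 10.4 and 2.16 CPM in vehicle 2, 3 and 4 and at 46.3, 3.59 and 5.49 CPM in panobinostat 1, 5 and 6. Grhl2, an epithelial transcription factor gene on chromosome 15, was at 4.01, 2.48 and 0.583 CPM and at 11.1, 1.41 and 1.83 CPM. Xlr4a and Xlr4c, related X-linked copies that may share reads, were highest in panobinostat 1 as well, at 6.49 and 10.1 CPM. Slc38a1 (chromosome 15), Emilin1 (chromosome 5), Tgif1 (chromosome 17) and Lrrc8e (chromosome 8) were also highest in panobinostat 1, at 22.8, 13.2, 4.37 and 1.53 CPM. None of these genes outside the family was called (edgeR adjusted p from 0.37 to 0.53).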
